A study of Mus musculus with 68 samples.

Results

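Genes induced by type I interferon were followed as a group across spontaneous mammary tumours of mice. The group was a list of 36 genes, each measured by 1 of the probe sets that the platform annotation gives to that gene alone, the brightest on average over all 68 arrays. Over the 56 arrays described here, an unused probe set was brighter for Herc6 (mean 7.596 against 7.375) and for Eif2ak2 (8.004 against 7.903). Of the 36, 34 had such a probe set and all 34 passed the filter on low values, among 12560 genes tested and 18194 genes with a probe set of their own. Ifi44 is named only. Isg15 was carried by a probe set given to Isg15 and Gm9706 together and was therefore kept apart from the 34.

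The animals carried the MMTV-PyMT transgene, in which a mouse mammary tumour virus promoter drives the polyoma middle T oncogene in mammary epithelium, on the background labelled ((NZB x PyMT) x FVB), in which hybrids of NZB and the transgenic line were crossed to FVB. Of 68 Affymetrix arrays, 56 were used, 1 per animal, each with a mean of the 18S ribosomal RNA control probe sets between 5.03 and 6.84 on the log2 scale. The other 12 arrays had means from 8.97 to 10.16 and are described only at the end. The labels form 1 group with no treatment, age or control tissue given, so the replicate is the animal and the question open to the data is how the genes varied between tumours. Animal numbers up to 3891 (41 tumours) and from 4946 (15 tumours) form a lower and an upper range, and 8 of the 56 titles end in R, a mark that the sources used here do not explain. The 56 arrays also fell into 3 array sets that the labels do not name, found from probe sets that split the arrays in the same way: set 1 with 39 arrays, set 3 with 9 and set 4 with 8. All 8 arrays with R lay in set 3, and set 4 held upper numbers alone. Control probe sets at the tail of a transcript less those at its head reflect RNA quality. For Gapdh this difference ran from 0.09 to 0.22 in set 3, 0.004 to 0.14 in set 4 and -0.24 to 0.21 in set 1. For Actb it ran from 0.95 to 1.23 in set 3, 0.55 to 0.89 in set 4 and 0.53 to 1.41 in set 1. No fit held a term for it. Markers of mammary epithelium were present in every tumour, with Krt8 between 11.90 and 12.94 and Epcam between 11.12 and 12.43 on the log2 scale. The number of arrays limits the precision, and no value was available on signal over background.

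Type I interferons are cytokines made by cells that detect viral or misplaced nucleic acid. They bind a receptor shared by nearly all cells and, through the kinases Jak1 and Tyk2, act on Stat2 and Irf9, which bind the interferon stimulated response element of target genes as a complex. The targets encode sensors of foreign RNA and DNA, enzymes that block RNA and nucleotides from use by viruses, membrane proteins that hinder entry and release, and Irf7, which raises the production of interferon further. In tumours the same programme is known in cancer cells as well as in immune and stromal cells.

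The response element can be read in the promoters. The first 6 printed were taken from those that hold the core, as a description. For each, 160 bases before a transcript start are printed from RefSeq (GRCm38.p6), in the direction of transcription. Capitals mark the core searched for: GAAA, any 2 bases and GAAA again, on either strand, overlaps allowed.
Ifit1, chr19:34640729-34640888 (+ strand): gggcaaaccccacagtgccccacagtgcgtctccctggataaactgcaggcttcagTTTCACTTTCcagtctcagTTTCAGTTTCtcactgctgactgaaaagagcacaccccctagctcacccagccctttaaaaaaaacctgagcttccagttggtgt
Ifit3, chr19:34583369-34583528 (+ strand): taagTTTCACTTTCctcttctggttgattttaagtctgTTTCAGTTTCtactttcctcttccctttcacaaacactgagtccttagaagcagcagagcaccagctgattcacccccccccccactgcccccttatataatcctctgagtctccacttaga
Oas1a, chr5:120907526-120907685 (- strand): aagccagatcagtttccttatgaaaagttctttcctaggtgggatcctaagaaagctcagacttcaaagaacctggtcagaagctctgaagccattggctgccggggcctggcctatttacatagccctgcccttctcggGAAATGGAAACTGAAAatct
Bst2, chr8:71537473-71537632 (- strand): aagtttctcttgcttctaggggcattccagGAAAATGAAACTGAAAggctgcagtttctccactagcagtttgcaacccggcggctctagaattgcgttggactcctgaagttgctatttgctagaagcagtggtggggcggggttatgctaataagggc
Gbp3, chr3:142559884-142560043 (+ strand): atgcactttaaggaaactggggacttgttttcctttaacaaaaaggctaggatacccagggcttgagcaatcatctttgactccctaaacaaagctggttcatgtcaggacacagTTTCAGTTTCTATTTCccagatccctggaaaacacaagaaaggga
Rsad2, chr12:26456453-26456612 (- strand): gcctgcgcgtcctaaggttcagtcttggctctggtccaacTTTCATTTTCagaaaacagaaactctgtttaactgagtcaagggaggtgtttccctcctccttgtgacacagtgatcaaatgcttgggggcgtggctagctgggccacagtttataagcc
The core was present in these 6 promoters at least once, and in Oas1a, Bst2 and Gbp3 copies overlapped. Promoters of 27 of the 36 listed genes were in the table, and 14 of the 27 (51.9%) held the core in the 300 bases from 250 before to 50 after a start. Over the whole RefSeq set, 3.99% of genes and 3.44% of windows held it, as did 3.44% of tested genes outside the group. The other members with the core before the start were Oas3, Isg15, Stat2, Trim30a and Gbp2, and Ifih1, Ifitm3 and Eif2ak2 held it only after the start. Oasl2, the member that followed the others most closely, and Irf7 held no copy in this window. Of the 33 windows of listed members, 16 lie at the outermost start of the gene. The other 17 lie at a start inside the gene, those of Oasl2 and Irf7 among them.
Oasl2, chr5:114896774-114896933 (+ strand): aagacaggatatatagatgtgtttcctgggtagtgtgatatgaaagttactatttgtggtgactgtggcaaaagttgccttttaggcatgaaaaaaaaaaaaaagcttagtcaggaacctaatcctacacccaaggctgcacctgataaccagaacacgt
Irf7, chr7:141266425-141266584 (- strand): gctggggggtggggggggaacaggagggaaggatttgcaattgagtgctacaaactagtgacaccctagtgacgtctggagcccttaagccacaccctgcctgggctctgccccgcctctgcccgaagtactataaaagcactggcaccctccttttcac
Among members with values, the 13 with the core had a median correlation with the rest of the group of 0.878 and the 12 without it of 0.896. Their median SDs were 0.681 and 0.629. A match is a description of letters in a window and marks no bound site.

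The members varied more between tumours than most genes. The median member SD over 56 tumours was 0.645 on the log2 scale, against 0.227 for all tested genes, and all 34 members lay above that median. Of the 34, 17 lay in the top 5% of tested genes, above an SD of 0.640. Spread ran from 0.272 for Dtx3l to 0.972 for Ifit3, and the distance from the lowest to the highest tumour had a median of 2.61 (log2), from 1.07 for Dtx3l to 3.83 for Irf7. In these bulk samples, fewer cells of a type and less RNA per cell cannot be told apart.

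They also varied together. The median pairwise Pearson correlation was 0.823 over 561 pairs of members (56 tumours), with 0 pairs below 0, 534 above 0.5 and 69 above 0.9, whereas the median over pairs of all tested genes was 0.0096. Each value pair comes from 1 array, so array effects are shared by both genes. For each member the mean z-score of the other members served as the level of the rest of the group, and the correlation with it had a median of 0.917. It exceeded 0.9 in 21 members and 0.8 in 29, and it was below 0.5 in 0. Of 12526 other tested genes, 11 exceeded 0.9 and 30 exceeded 0.8.

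**Figure D1:**
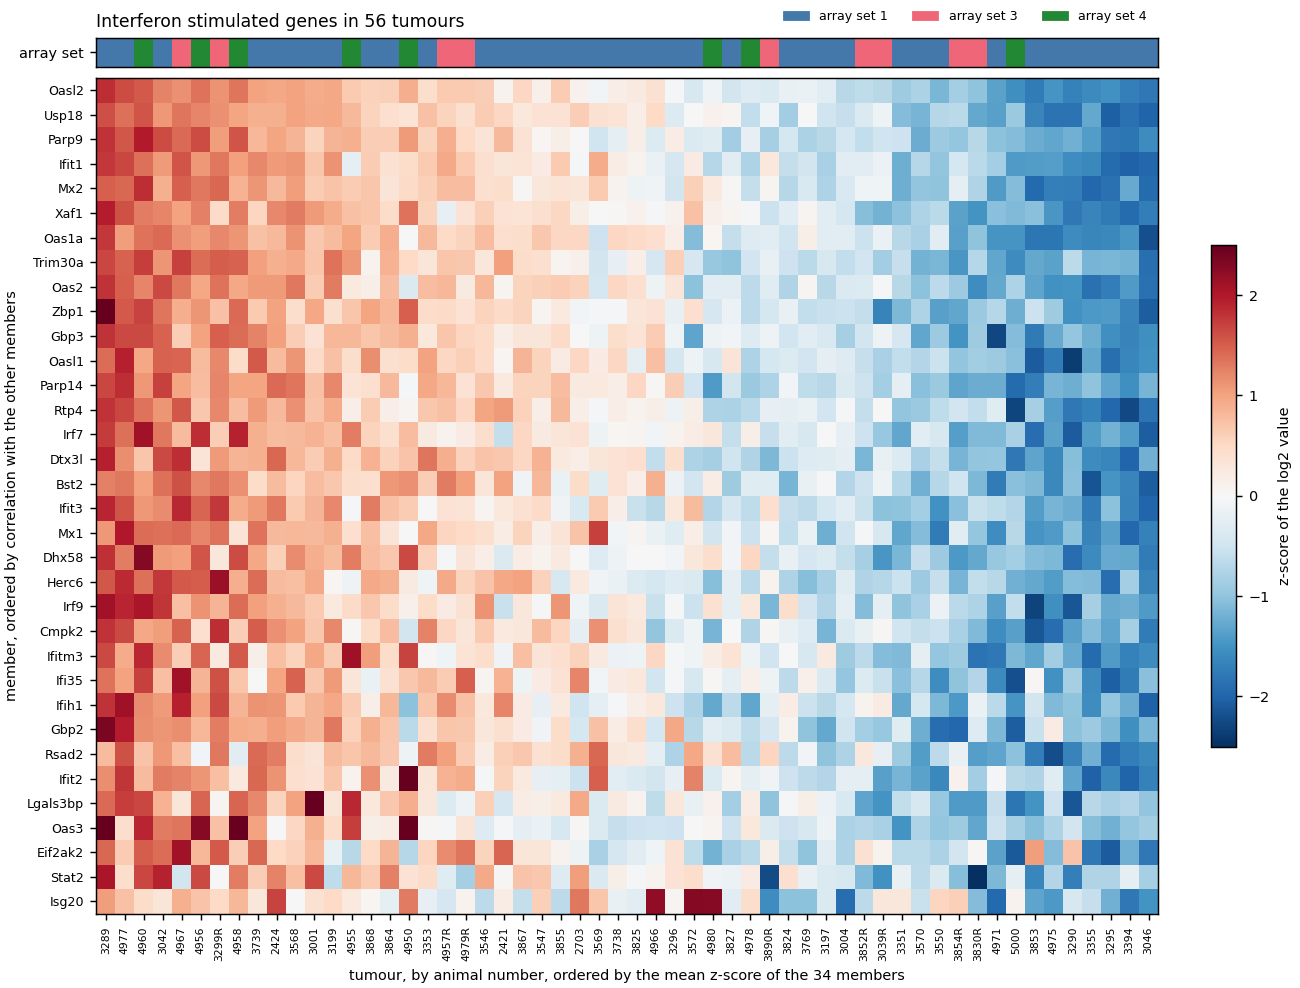
Each row is 1 of 34 members and each column 1 of 56 tumours, and the colour is the z-score of the log2 value within the member; the strip gives the array set. Tumours run from high (3289, 4977, 4960) to low (3295, 3394, 3046) across nearly all rows, with Isg20 in the bottom row as the least regular.

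The tumours at both ends were the same for most members. The tumour of animal 3289 was among the 5 highest for 26 of 34 members, that of 4977 for 23 and that of 4960 for 21. At the other end, the tumour of animal 3046 was among the 5 lowest for 25 members, that of 3394 for 21 and that of 3355 for 20. The tumours in between formed a gradual series. No member separated into distinct levels: the largest value of Ashman's D, which divides the distance between the means of a best split by their pooled spread, was 3.74 (Rsad2), and 0 members exceeded 4.5. A probe set given to Trim30d and Trim30a together, kept apart from the 34, did separate (D of 5.54) and is described in a later section.

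**Figure D2:**
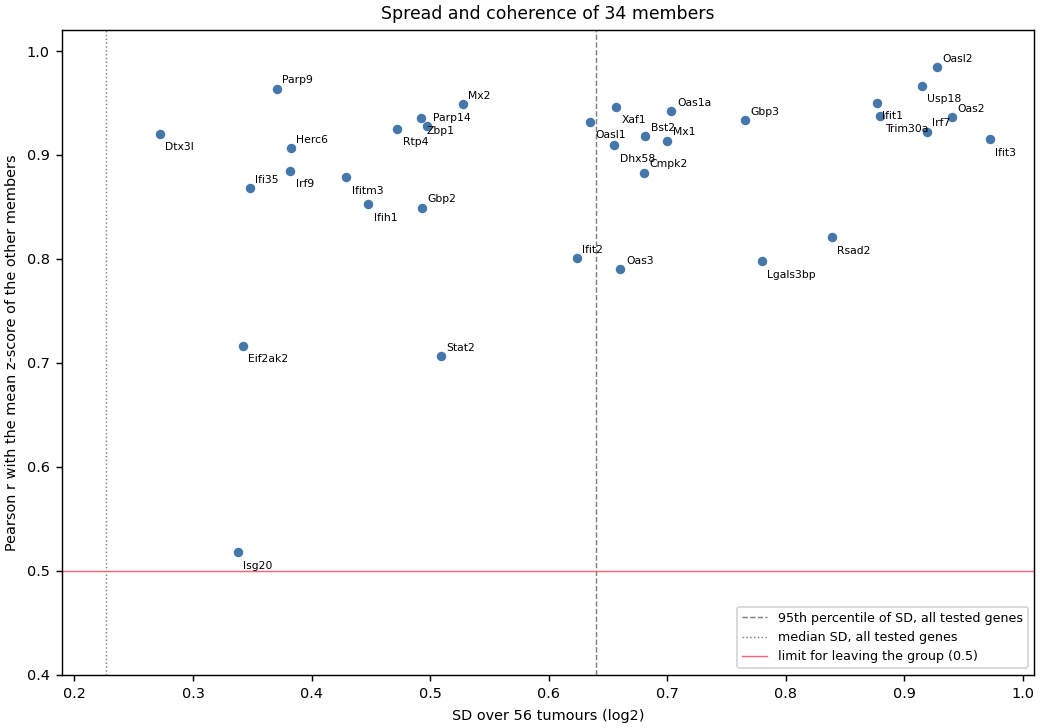
Each point is a member, with its SD over 56 tumours (log2) on the horizontal axis and its Pearson correlation with the mean z-score of the other members on the vertical axis. Isg20 lies lowest at 0.518, just above the line at 0.5, and 29 members lie above 0.8; vertical lines mark the median (0.227) and the 95th percentile (0.640) of SD among all tested genes.

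Among the transcription factors, Irf7, the master regulator of interferon production, had 7.58 (animal 3290) as its lowest value, 9.57 as its median and 11.41 (animal 4960) as its highest. That is a 14.2-fold distance, and the level rose through the 56 tumours without a gap wide enough to form separate levels. Irf9, the DNA-binding subunit of the interferon-activated complex, ranged over 7.96, 8.87 and 9.65 (lowest, median, highest) and followed the rest with r = 0.885. Stat2, the partner of Irf9 in that complex, ranged over 5.14, 6.40 and 7.48. Stat2 followed the rest less closely, with r = 0.706, or 0.816 after centring values within array sets. A second Stat2 probe set, not used here, had r = 0.852.

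The cytoplasmic sensors moved with the group. Ifih1, which detects long double-stranded RNA, had values of 8.58, 9.50 and 10.44 (lowest, median, highest) and r = 0.853 with the rest. Dhx58, a relative of Ifih1 that tunes RNA sensing, spanned 6.36 to 9.13 around a median of 7.61, with r = 0.909. Its dimmer probe sets, not used here, had r = 0.789 and 0.384. Zbp1, a sensor of nucleic acids in the left-handed Z form, spanned 6.99 to 9.29 around 8.01, with r = 0.936. All 3 were highest in a tumour that was also among the 3 highest of the group as a whole.

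The RNA-directed effectors include the most and the least typical members. The oligoadenylate synthetases make the second messenger that activates RNase L, and Oasl1 and Oasl2 are their ubiquitin-like relatives. Oasl2 had 7.40 (animal 3046), 9.15 and 10.78 (animal 3289) as its lowest, median and highest values and the highest correlation with the rest, 0.985. Oasl1 (r = 0.932), Oas1a (0.942) and Oas2 (0.936) were close to it, whereas Oas3 reached 0.790. Oas3 had a median of 5.16, under the 5.42 of the filter on low values, and passed that filter through its higher tumours. A best split put 44 tumours at a mean of 5.06, so most of its values lay near the floor. Oas3 ran from 4.37 to 7.03, and its rank correlation with the rest was 0.887. Its highest values were in animals 3289, 4950, 4958 and 4956, the last 3 of array set 4. The Ifit proteins bind viral RNA that lacks the host cap. Ifit1 ran from 6.997 to 10.32 with r = 0.950 and Ifit3 from 6.41 to 10.19 with r = 0.915, while Ifit2 ran from 6.55 to 9.38 with r = 0.801 and was highest in animal 4950, only the 17th tumour in the order of the group. Eif2ak2, the kinase that halts translation on double-stranded RNA, had a narrow spread (SD 0.342), a range of 7.18 to 8.62 and r = 0.717, and its probe sets differed, with 0.744 and 0.494 for the 2 not used.

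Isg20, an exonuclease that degrades single-stranded RNA, was the member closest to leaving the group. Its lowest value was 6.49, its median 7.17 and its highest 7.92, and its correlation with the rest was 0.518 (Spearman's rho 0.566). The lowest of all 561 pairs was Isg20 with Eif2ak2 at 0.258. The 3 highest Isg20 values, in animals 3572 (7.92), 4980 (7.92) and 4966 (7.90), came from tumours 32, 33 and 30 in the order of the group. Without the 2 tumours farthest from the median of the other members' mean the value was 0.477, and after centring within array sets 0.498, both under the limit of 0.5 that was set for leaving the group.

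The GTPases of the group are the Mx proteins, which act against incoming virus, and the Gbp proteins, which coat pathogens and the vacuoles that hold them. Their correlations with the rest ran from 0.849 to 0.949. Mx1 ran from 5.35 to 8.13 (median 6.77, r = 0.914) and Mx2 from 5.48 to 7.50 (median 6.61, r = 0.949). Gbp3 ran from 6.45 to 9.57 (median 8.25, r = 0.933) and Gbp2 from 7.89 to 10.07 (median 8.98, r = 0.849). Mx1 was highest in animal 4977, both Gbp genes in animal 3289 and Mx2 in animal 4960.

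The 4 genes of the ISG15 and ubiquitin systems had correlations with the rest from 0.906 to 0.966. Usp18, which removes ISG15 from proteins and dampens receptor signalling, had a lowest value of 6.85, a median of 8.995 and a highest of 10.20, with r = 0.966. Herc6, the ligase that attaches ISG15 in mice, had r = 0.906 on a narrow SD of 0.382. Trim30a, a ubiquitin ligase of the Trim family, had r = 0.938 and ran from 5.41 to 8.58. Another probe set of Trim30a alone, not used here, had r = 0.755. Dtx3l, a ubiquitin ligase that works with Parp9, had the narrowest spread of all members and still r = 0.920. The ADP-ribosyltransferases Parp9 (r = 0.964) and Parp14 (r = 0.928) completed this set, with SDs of 0.371 and 0.498.

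Of the remaining members, Rsad2 (viperin, which makes a chain-terminating nucleotide) ran from 7.26 to 10.45 with r = 0.821, and its neighbour Cmpk2, a mitochondrial nucleotide kinase, from 6.73 to 9.44 with r = 0.883. Dimmer Rsad2 probe sets, not used here, had r = 0.6845 and 0.7005. Xaf1, a pro-apoptotic antagonist of XIAP, had r = 0.947 and Ifi35 r = 0.868. Bst2 (tetherin, which holds budding virus at the cell surface) had r = 0.918, Rtp4 0.925 and Ifitm3, which blocks viral fusion, 0.878. Lgals3bp, a secreted glycoprotein that binds galectins, had r = 0.798 and spanned 8.67 to 12.43. Its highest tumour, animal 3001, was only the 12th in the order of the group.

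To put a size on the joint movement, all tested genes were fitted with limma on the level of Irf7. All 33 other members rose with Irf7, at a Benjamini-Hochberg adjusted p below 0.05, against 13% of the 12559 genes tested that rose and 11.7% that fell. The members' median slope was 0.566 log2 units per log2 unit of Irf7, beside 0.0030 for all tested genes. This fit restates the correlations above in another form and is not separate evidence. Slopes ran from 0.945 ± 0.047 (SE) for Oasl2, with Usp18 at 0.894, Ifit3 at 0.886 and Oas2 at 0.873, down to 0.201 ± 0.042 for Eif2ak2 and 0.197 ± 0.042 for Isg20 (limma adjusted p = 0.000556). With the array sets as terms, 33 of 33 members rose, against 5.95% of genes that rose and 9.98% that fell. The slope of 0 members was found to differ between the number ranges after adjustment (limma interaction term, chosen after seeing the data), where 0 of 12559 genes passed and 713 had an unadjusted p below 0.05, among them 1 member, Oasl1 (adjusted p = 0.848).

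**Figure D3:**
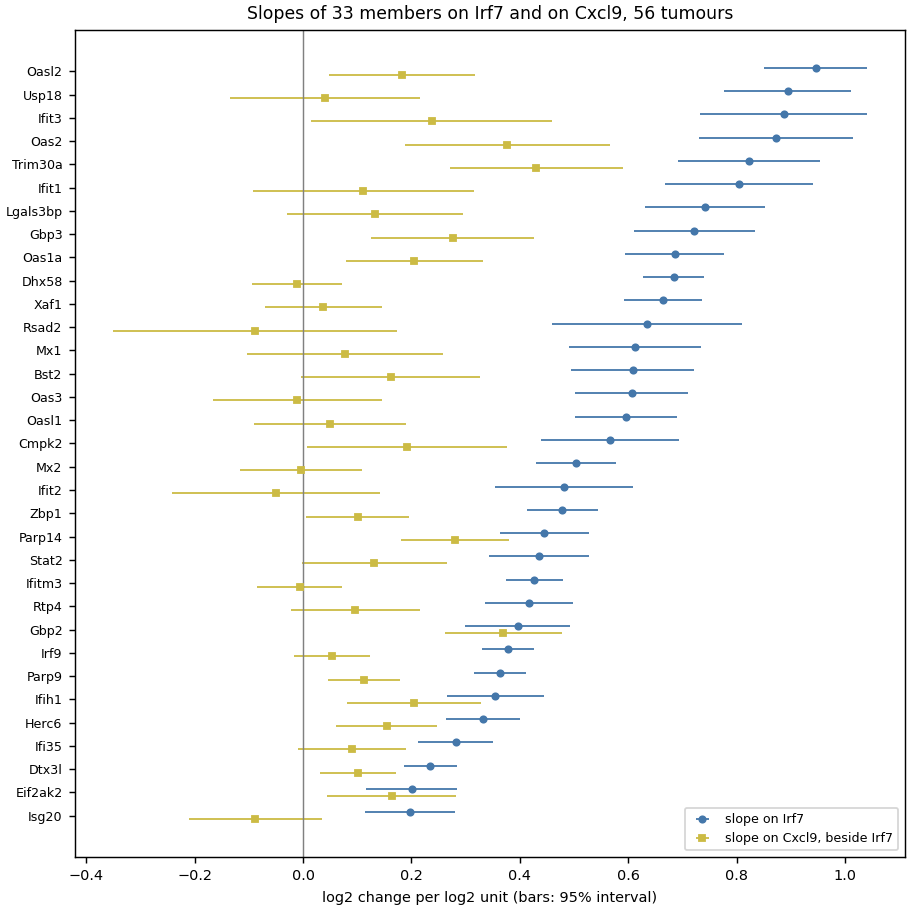
Points are limma slopes in log2 units per log2 unit over 56 tumours, with 95% intervals, for 33 members: circles for Irf7 alone and squares for Cxcl9 beside Irf7. The Irf7 slopes run from 0.197 (Isg20) to 0.945 (Oasl2), and the Cxcl9 slopes are largest for Trim30a (0.43), Oas2 (0.38) and Gbp2 (0.37).

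Slopes on a further gene beside Irf7 were estimated for each member, and differences between members were not tested. These fits held no term for the array sets. Irf7 itself had a median of 10.43 in array set 4 and of 9.56 in the lower numbers of array set 1. How far the array sets enter these slopes was not tested. When Ptprc, the leukocyte antigen CD45, was added as a further slope, all 33 members rose with Irf7 (15.1% of all genes did), and 15 of 33 also rose with Ptprc (14.8% of all genes). The largest Ptprc slopes were 0.48 for Trim30a, 0.38 for Gbp2, 0.37 for Oas2 and 0.34 for Parp14, whereas Ifit2 (-0.00024), Mx2 (0.014) and Ifitm3 (-0.025) were near 0. When Cxcl9, a chemokine that responds mainly to interferon gamma, took that place, all 33 rose with Irf7 (15.3% of genes) and 12 of 33 also rose with Cxcl9 (10.5% of genes). Trim30a (0.43), Oas2 (0.38), Gbp2 (0.37), Parp14 (0.28) and Gbp3 (0.28) had the largest Cxcl9 slopes. Usp18 (0.041), Xaf1 (0.038), Mx2 (-0.0038), Dhx58 (-0.011) and Oas3 (-0.010) had values near 0, with 95% intervals that held 0.

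Genes of the same pathway outside the list were counted in the same Irf7 fit, in which 13% of all tested genes rose and 11.7% fell. Of 36 tested genes listed as further interferon stimulated genes, 30 rose and 1, Isg20l2, fell (slope -0.09). That Isg20l2 responds to interferon was not tested. Psmb8 and Psmb9 are counted both there and among the class I genes below. Of 10 sensors 7 rose, led by Ddx58, the RNA sensor RIG-I (slope 0.36), and Adar, which edits double-stranded RNA (0.22). Of 12 receptor and signalling genes 6 rose (Ifnar2, Ifnlr1, Irf1, Irf3, Irf5 and Irf8), while the slope of Ifnar1, the other receptor chain, was -0.02 (limma adjusted p = 0.672). Of 8 tested genes listed as restraining the pathway 3 rose, Nlrc5, Nlrx1 and Trim21, and whether they act so here was not tested. Socs1 of that list had a mean of 4.21 and did not pass the filter on low values. All 8 genes of antigen presentation by class I rose, among them Tap1, the peptide transporter (0.43), and B2m, the light chain (0.28), as did 8 of 9 targets of interferon gamma. Of 7 interferon genes with a probe set only Ifna1 passed the filter on low values, and its slope was 0.0094. Ifnb1 lay between 3.74 and 4.51 and Ifng between 2.23 and 2.90 in all tumours.

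Markers of cell types were set beside the members in the same way. Their counts stand beside the 13% of all tested genes that rose and the 11.7% that fell, and several lie near these shares. With Irf7, 0 of 6 pan-leukocyte genes, 0 of 5 neutrophil genes and 0 of 4 B cell genes rose. Of 7 T and NK cell genes 1 rose (Gzmb). Among the 5 tested genes listed for plasmacytoid dendritic cells, Siglech, Tcf4, Klk1, Cox6a2 and Ly6d, 0 rose. Siglech had a mean of 5.35, near the filter value. Whether these 5 mark such cells in bulk tumours was not tested, so the count does not show how the cells varied. Of 10 macrophage genes 3 rose, C1qa, C1qc and Fcgr1, and of 8 epithelial genes 5 rose, Krt8, Krt18, Krt19, Epcam and Cldn3. These counts refer to Irf7 alone. Correlations with the mean z-score of the 34 members set the 2 lists less far apart. For these 5 epithelial genes they were 0.387, 0.296, 0.303, 0.210 and 0.123. The pan-leukocyte genes had 0.281 (Cd52), 0.271 (Coro1a), 0.247 (Ptprc), 0.245 (Rac2), 0.162 (Cd53) and 0.146 (Laptm5). Of 6 fibroblast genes 1 rose (Col1a1), and of the endothelial, adipocyte, muscle and skin genes 0 of 6, 0 of 4, 0 of 5 and 0 of 5. Of 7 mitosis genes 4 fell, Bub1 (-0.18), Top2a (-0.15), Mki67 (-0.12) and Cdk1 (-0.11). With the array sets as terms, 3 of 8 epithelial, 3 of 7 T and NK cell, 3 of 10 macrophage, 1 of 5 neutrophil, 1 of 6 endothelial and 0 of 6 fibroblast genes rose, 6 of 7 mitosis genes fell, and 5 of 10 sensors and 5 of 12 receptor and signalling genes rose. Over all tested genes, 5.95% rose and 9.98% fell in the fit with array sets. The counts of the 36 genes listed as further interferon stimulated genes, the genes listed as restraining, the class I genes and the interferon gamma targets were equal in both fits. Whether the makeup of the tumours had a part in the members' levels was not tested.

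The genes outside the list that were most like it were found by their correlation with the mean z-score of the 34 members over 56 tumours. Ddx58 led with 0.970, followed by the GTPase Igtp (0.960), the helicase Ddx60 (0.954), Parp12 (0.950), Oas1b (0.939), Irgm2 (0.933) and Irgm1 (0.932). Phf11d, Adar, Gm9706 and Znfx1 also exceeded 0.9. The next 9 were Tap1, Ifi47, Helz2, Tor3a, Trafd1, Ube2l6, Samd9l, Iigp1 and Mitd1, from 0.869 down to 0.839. At the other end stood Alg10b (-0.691), Mmgt1 (-0.681), Pgap1 (-0.581), Stt3a (-0.573) and Ipo11 (-0.552). Alg10b and Stt3a act in the assembly and transfer of N-linked glycans in the endoplasmic reticulum, and Pgap1 acts there on GPI anchors.

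**Figure D4:**
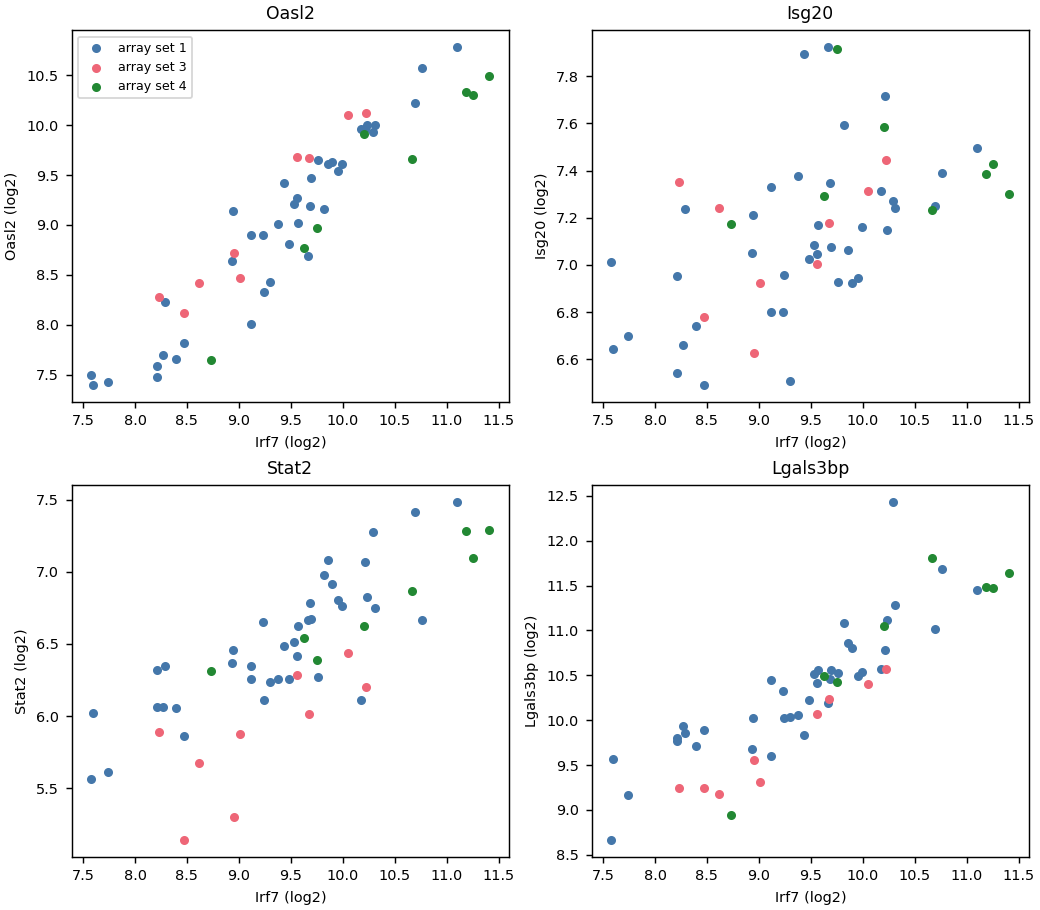
Each point is a tumour, with Irf7 (log2) on the horizontal axis and Oasl2, Isg20, Stat2 or Lgals3bp (log2) on the vertical axis; colours give the array set. Oasl2 follows Irf7 in all sets, Isg20 scatters, and in Stat2 and Lgals3bp most points of array set 3 lie under the others at a given Irf7 level.

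The upper and lower animal numbers were compared with limma, with suffix R as a term. Oas3 in the 41 lower numbers had values of 4.37, 5.09 and 7.03 (lowest, median, highest), and in the 15 upper numbers 4.81, 5.57 and 6.997. The median of the lower numbers lay under the filter value of 5.42. Dhx58 had 6.36, 7.54 and 8.82 in the lower and 6.88, 7.95 and 9.13 in the upper numbers. The groups overlapped widely for both genes, with more high tumours among the upper numbers. Both were higher in the upper numbers, Oas3 by 0.64 ± 0.18 (SE, limma adjusted p = 0.0054) and Dhx58 by 0.53 ± 0.18 (limma adjusted p = 0.0205). These 2 of 34 members compare with 18.5% of all tested genes that were higher, and 0 members were lower against 6.27% of genes. With the probe set of largest SD for each gene, Eif2ak2 was lower (difference -0.35, limma adjusted p = 0.0431). The median member difference was 0.22, beside 0.02 for all tested genes, and with the array sets as terms 0.17, beside 0.03. With the array sets as terms, limma called 0 genes at all, while 685 higher and 187 lower genes and 0 members had an unadjusted p below 0.05. Oas3 then differed by 0.21 (adjusted p = 0.879) and Dhx58 by 0.27 (adjusted p = 0.846). Within array set 1, the upper numbers 4977, 4966, 4971 and 4975 had Oas3 values of 5.64, 5.02, 5.02 and 4.84, and their mean lay 0.08 under that of the 35 lower numbers (difference -0.08). Member differences within array set 1 ran from -0.52 (Cmpk2) to 0.26 (Ifit2), with Rsad2 at -0.45, Dhx58 at -0.06 and Ifih1 at 0.11. The 8 arrays of set 4, all from upper numbers, had an Oas3 median of 6.55. Number range and array set can therefore be told apart only in part.

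Arrays with the suffix R were compared in the same way, with the number range as a term. Stat2 had values of 5.14, 5.88 and 6.44 in the 8 arrays with R and 5.57, 6.499 and 7.48 in the 48 without. Lgals3bp had 9.18, 9.44 and 10.40 with R and 8.67, 10.48 and 12.43 without. The ranges overlapped for both, and the medians with R lay low in the range of the others. Stat2 was lower with R (difference -0.71 ± 0.17 SE, limma adjusted p = 0.000658), and so was Lgals3bp (-0.79 ± 0.27 SE, limma adjusted p = 0.0177). These 2 of 34 members compare with 20.8% of tested genes that were lower, and 0 members were higher against 13.7% of genes. Since all 8 arrays with R lie in array set 3, with 1 array without R, the mark and the array set cannot be told apart.

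Members that are neighbours in the genome were set beside other pairs. After each member was regressed on the mean z-score of the other members, residuals of the 15 pairs that lie within 1 Mb of each other had a median correlation of 0.445, and those of the 546 other pairs 0.037. Of the 15, 8 exceeded 0.4, and of the 546, 54 (9.89%). The highest were Oas1a with Oas2 (0.64), Irf7 with Ifitm3 (0.57), Ifit2 with Ifit3 (0.56), Parp14 with Dtx3l (0.55), Mx1 with Mx2 (0.54) and Rsad2 with Cmpk2 (0.52). Oas3 went the other way beside its neighbours, with -0.38 for Oas2 and -0.21 for Oas1a. After centring within array sets the medians were 0.404 and 0.032, and the value for Irf7 with Ifitm3 was 0.27. The highest residual correlation of all pairs was between genes on different chromosomes, Irf7 and Dhx58, at 0.76, or 0.48 after centring. Related sequences within the Oas, Ifit, Gbp and Mx families can share probe signal, and this was not tested.

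**Figure D5:**
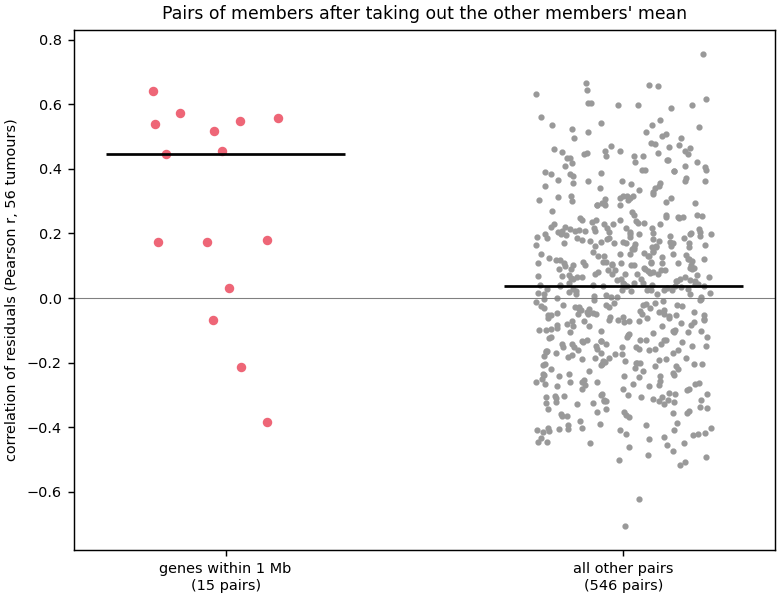
Each point is a pair of members, and the vertical axis is the correlation over 56 tumours of what is left after the other members' mean is taken out; horizontal bars are medians. The 15 pairs within 1 Mb have a median of 0.445 and the 546 other pairs 0.037, with the pairs of Oas3 with Oas1a and Oas2 at the bottom of the first column.

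In the 12 arrays with high 18S values the members had a median pairwise correlation of 0.824 and a lowest of 0.136. Their levels differed from those of the 56: 31 of 34 members had a lower mean and 3 a higher one, with a median difference of -0.66. Among all tested genes 80.7% had a lower mean and the median difference was -0.43. The arrays 3296R and 3351R belong to the 12 and share an animal number with arrays of the 56. Of the 34 members, 30 were lower and 4 higher in 3296R than in 3296, with a median difference of -0.88. Between 3351R and 3351 the members were evenly divided, with 17 lower and 17 higher and a median difference of -0.09. Oasl2 was lower in 3351R (7.66 against 8.23), while Ifit1 was higher there (8.62 against 7.70).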

How the data were processed

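Total RNA was the starting material, biotin the label and Affymetrix arrays the platform. The submitters' processing notes name RMA, which corrects background, normalises arrays and summarises probes. No source states the scale: the range of what the authors deposited, 1.68 to 14.57, was taken to be log2. The RMA version, and whether all arrays were normalised together, are not given in the sources used here. Probe sets with several genes named no gene. The filter kept genes with a 95th percentile over the 56 tumours above 5.42, the median of all values. Genes were fitted with limma 3.58.1 (lmFit and eBayes, R 4.3.3), with p-values adjusted by Benjamini-Hochberg over all tested genes and a threshold of 0.05. The script was tested on simulated data. Array sets are splits that 20 or more probe sets on 10 or more chromosomes shared with Ashman's D above 4.5, and are not groups of the study. The text names the members, genes of pathway and marker lists, and the 20 genes most and 5 genes least correlated with the members. Members, lists and tests were chosen with earlier results of these data known. Alternatives were other probe set choices, filters, arrays and terms.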

Additional observations from a re-analysis of the deposited data

Results flagged for a closer look

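Probe sets given to several genes named no gene above, and both such probe sets that touch the list carried signal. The probe set given to Isg15 and Gm9706 had an SD of 0.801 over 56 tumours, a lowest value of 7.03, a median of 8.87 and a highest of 10.19, and its correlation with the mean z-score of the 34 members was 0.977. The probe set given to Trim30d and Trim30a had an SD of 1.74 and fell into separate levels, with Ashman's D of 5.54. There, 25 tumours had a mean of 4.75 and 31 a mean of 8.01, and the highest of the 25 (5.88) lay under the lowest of the 31 (6.51). Its correlation with the members was 0.756. The Trim30a probe set used above, split in the same way, put 87.5% of tumours on the same side, with D of 3.55. The cause was not tested.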

How the results depend on the processing

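All 426 slopes of members on Irf7 under 13 alternatives were above 0 and 425 passed the threshold, the exception being Eif2ak2 with the probe set of largest SD (0.14, limma adjusted p = 0.104). The median pairwise correlation stayed between 0.793 and 0.852, and the median SD between 0.553 and 0.673. Members higher in the upper numbers went from 2 to 1 with all 68 arrays, with the mean of probe sets and with the stricter filter, which leaves fewer members, and to 0 with array sets as terms. With the largest SD 2 were higher and 1, Eif2ak2, lower. Members lower with R went from 2 to 1 with 68 arrays and 4 with the largest SD (Trim30a and Ifi35 in addition). Genes rising with Irf7 went from 1631 to 5551 (68 arrays), 241 (lower numbers without R, fewer samples), 969 (suffix and range as terms), 747 (array sets as terms) and 171 (Usp18 in place of Irf7), and genes falling from 1472 to 206 (lower numbers without R) and 77 (Usp18). Genes higher and lower in the upper numbers went from 2324 and 788 to 353 and 118 (68 arrays) and 0 and 0 (array sets). Genes higher and lower with R went from 1722 and 2614 to 478 and 690 (68 arrays). Members under 0.5 went from 0 to 1 with 68 arrays (Herc6, 0.355), with the largest SD (Eif2ak2, 0.497), without the 2 animals farthest in Irf7, 3290 and 3046 (Isg20, 0.493), and centred within sets (Isg20, 0.498). Members in the top 5% by SD went from 17 to 9 with the largest SD. Dhx58 lost its call with 68 arrays (0.49) and the mean of probe sets (0.27), and Lgals3bp with 68 arrays (-0.70). Apart from the sample and gene counts named, the cause was not tested.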
